A study of Gossypium hirsutum with 30 samples.

Results

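TCH4, also named XTH22, is a xyloglucan endotransglucosylase/hydrolase, and 2 of the 24029 cotton probe sets tested here, Ghi.10493.1.S1_s_at and Ghi.1127.2.A1_x_at, were chosen by their best Arabidopsis match, this gene (AT5G57560), and selected on their fl mutant minus WT differences, as these arrays measured them. Their folds are therefore given as a description, with no test. Probe set names are printed in capitals from here on (GHI.10493.1.S1_S_AT and GHI.1127.2.A1_X_AT). The arrays compared ovules of Gossypium hirsutum cv. MCU5, the fibre-bearing wild type (WT), with those of a near-isogenic line, the fuzzless-lintless (fl) mutant, which arose spontaneously and is kept as a single pure line. Both were grown in the field, bolls were collected at 5 stages from 0 to 20 dpa (days post anthesis), and total RNA of the ovules was hybridised to Affymetrix cotton GeneChips. With 3 biological replicates per genotype and stage, the 30 arrays formed 10 groups, and no group carried any further treatment or transgene. Stage stands for fibre initiation at 0 dpa, elongation at 5, 10 and 15 dpa and secondary wall synthesis at 20 dpa. The sources do not say whether the 3 replicates were separate plants, so the spread between them may hold little more than the spread between samplings.

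Xyloglucan is the hemicellulose that coats and tethers cellulose microfibrils in the primary wall of dicots. Enzymes of the XTH family cut a xyloglucan chain and join the cut end to another chain, so that the wall can yield during growth without losing strength. In Arabidopsis, TCH4 was found among the TCH genes whose transcripts rise within minutes of touch, wind or other stimuli. TCH1 encodes calmodulin, TCH2 a calmodulin-like calcium sensor, and TCH4 the wall enzyme. Cotton fibres are single epidermal cells of the ovule that elongate for weeks, and wall-loosening enzymes are among the genes commonly studied in them.

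The ending of each probe set name tells what its probes can separate. In Affymetrix naming, _s_at marks probes shared by several transcripts and _x_at marks sets with some probes that also match other sequences. Endings of this kind are common on the array, with 9290 sets ending in _s_at and 1556 in _x_at. Upland cotton is an allotetraploid, so signal of either TCH4/XTH22 probe set may come from several gene copies, and the share of each copy was not tested. The study designed primers for quantitative RT-PCR on 1 of them, GHI.1127.2.A1_X_AT, and the forward primer is shown because it lies in the transcript that was assayed outside the array. Capitals mark the last 5 bases at the 3′ end, from which the polymerase extends, and the primer is 24 bases long with 12 G or C bases. Chromosome and strand are not given, as the sources used here do not place it on a genome.
GHI.1127.2.A1_X_AT forward primer: cacccatttcaaccttggcTGCTT

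Every value below is a log2 signal that was shifted, probe set by probe set, so that the 6 arrays of a stage have a median of 0. A value of 3 in WT at 0 dpa is therefore no expression level, and values can be set against each other only between the genotypes of 1 stage. When the genotypes do not overlap, the shift also makes the closest WT and mutant arrays equal in size and opposite in sign. Array medians lay between -0.04 and 0.04, which this processing sets near 0 and which cannot show whether an array stood apart. Since the RNA came from whole ovules, fewer cells with the transcript and less transcript per cell cannot be told apart.

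At 0 dpa, the day of flowering, both TCH4/XTH22 probe sets were far lower in the fl mutant. For GHI.10493.1.S1_S_AT the WT arrays read 3.57, 3.46 and 3.53 and the mutant arrays -3.56, -3.47 and -3.46. For GHI.1127.2.A1_X_AT the WT arrays read 3.04, 3.20 and 3.16 and the mutant arrays -3.04, -3.81 and -3.98. The genotypes were widely separated in both, and mutant replicate 1 of GHI.1127.2.A1_X_AT was the highest of its group, closer to WT than the other mutant arrays. The log2 fold (fl mutant minus WT) was -7.02 (SE 0.0597, n = 3 arrays per genotype) for GHI.10493.1.S1_S_AT, a 129.8-fold lower signal, and -6.74 (SE 0.221) for GHI.1127.2.A1_X_AT, a 107-fold lower signal. The wider error of the second came from the mutant arrays, whose SD was 0.497 against 0.0804 in WT.

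At 5 dpa the genotypes differed far less than at 0 dpa. Here and at 20 dpa the direction needs care. Signs by the sample labels were set against the study's fold table of metabolism and cell wall transcripts. They were opposite for 144 of 144 folds at these stages, against 1 of 413 at 0, 10 and 15 dpa. The labels were kept, groups at 5 and 20 dpa are named by them, and every sign at these stages turns if they are exchanged. For GHI.10493.1.S1_S_AT the arrays labelled WT read -0.28, -0.30 and -0.32 and those labelled fl mutant 0.54, 0.69 and 0.28, a fold of 0.81 (SE 0.102) on the log2 scale. For GHI.1127.2.A1_X_AT the arrays labelled WT read -0.03, -0.05 and -0.06 and those labelled fl mutant 0.06, 0.15 and 0.03, a fold of 0.13 (SE 0.0575). Both sets of values were apart without touching, although by only 0.57 and 0.07 between the closest arrays.

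At 10 dpa, in rapid fibre elongation, the transcript was again far lower in the mutant. The WT arrays of GHI.10493.1.S1_S_AT read 3.34, 3.53 and 3.05 and the mutant arrays -3.43, -3.05 and -3.12, a log2 fold of -6.50 (SE 0.149). The WT arrays of GHI.1127.2.A1_X_AT read 4.03, 4.02 and 4.10 and the mutant arrays -4.02, -4.42 and -4.24, a log2 fold of -8.27 (SE 0.111). As linear ratios these were a 90.8-fold and a 309.6-fold lower signal, and no WT array came near a mutant array.

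At 15 dpa the direction was the reverse, and all mutant arrays lay above all WT arrays. GHI.10493.1.S1_S_AT read -2.73, -2.77 and -2.93 in WT and 2.82, 2.74 and 2.73 in the mutant, a log2 fold of 5.58 (SE 0.0656) or a 47.7-fold higher signal. GHI.1127.2.A1_X_AT read -2.66, -2.42 and -2.24 in WT and 2.31, 2.29 and 2.24 in the mutant, a log2 fold of 4.72 (SE 0.105) or a 26.4-fold higher signal. The mutant arrays were the tighter group in both, with SDs of 0.0509 and 0.0367 against 0.105 and 0.211 in WT.

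At 20 dpa the difference was small. GHI.10493.1.S1_S_AT read 0.50, 0.45 and 0.54 in the arrays labelled WT and -0.45, -0.50 and -0.53 in those labelled fl mutant, a log2 fold of -0.99 (SE 0.0661). GHI.1127.2.A1_X_AT read 0.65, 0.50 and 0.47 in the arrays labelled WT and -0.55, -0.47 and -0.62 in those labelled fl mutant, a log2 fold of -1.09 (SE 0.0786). The closest arrays of the genotypes were 0.89 and 0.94 apart. In linear terms the arrays labelled mutant held 1.98-fold and 2.12-fold less signal.

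**Figure D1:**
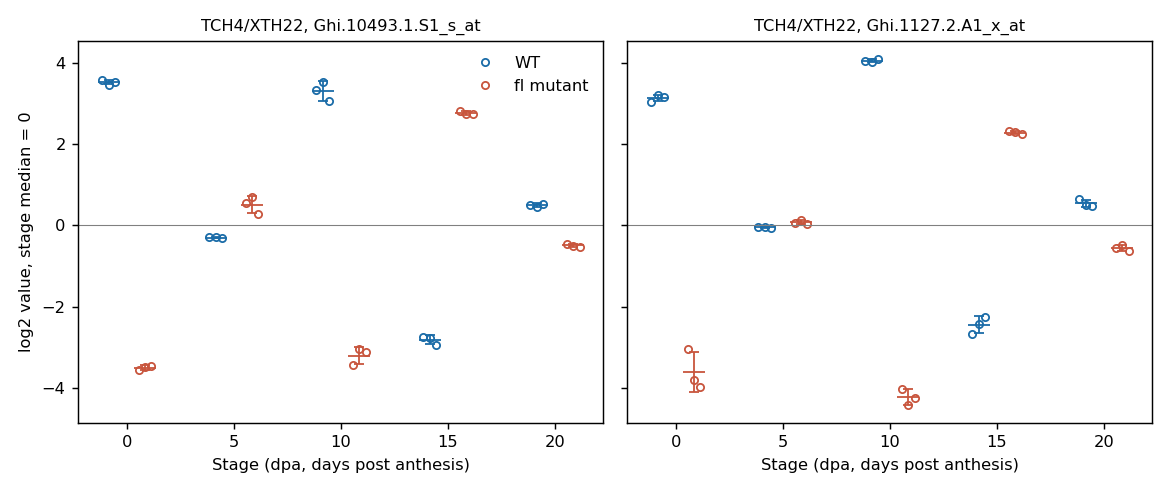
Log2 values (stage median at 0) of both TCH4/XTH22 probe sets in each of the 30 arrays, by stage in days post anthesis. Circles are arrays and bars the mean with SD of 3 arrays. The mutant minus WT fold runs from -8.27 to -6.50 at 0 and 10 dpa and from 4.72 to 5.58 at 15 dpa. Genotypes at 5 and 20 dpa are those of the sample labels.

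Differences this large were rare on the array, while arrays that merely did not overlap were common. The genotypes did not overlap for either TCH4/XTH22 probe set at any stage. The same was true of 56.9% of all probe sets at 0 dpa, 49.2% at 5 dpa, 64.3% at 10 dpa, 54.8% at 15 dpa and 58.3% at 20 dpa. A probe set was called different when its limma p, adjusted by Benjamini-Hochberg, was 0.01 or less and its fold reached 3, which are the limits the study used. Both probe sets passed as lower at 0 dpa, where 1.39% of all probe sets did so and 0.154% passed as higher, and as lower at 10 dpa, where 6.55% did so and 4.91% passed as higher. Both passed as higher at 15 dpa, where 1.52% did so and 1.91% passed as lower. Neither passed at 5 dpa, where 1.84% of probe sets passed as higher and 0.179% as lower, or at 20 dpa, with 2.47% higher and 1.95% lower. Because the probe sets were picked for these contrasts, their calls are read as a description alone.

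Ranked by the size of the fold among all 24029 probe sets, GHI.10493.1.S1_S_AT stood at place 1 at 0 dpa and GHI.1127.2.A1_X_AT at place 3. The transcript between them, GHI.1092.1.A1_X_AT (match AT4G29780, a protein of unknown function), had a fold of -6.97 (SE 0.0946), which lay within 1 SE of the first place. At 10 dpa the order was turned, with GHI.1127.2.A1_X_AT at place 1 and GHI.10493.1.S1_S_AT at place 28. Place 2 at 10 dpa was a further TCH4/XTH22 probe set, GRA.623.2.S1_S_AT, at -8.11 (SE 0.198), which differed from place 1 by less than its SE. A shift of 1 SE either way would have moved GHI.10493.1.S1_S_AT between places 23 and 36 at 10 dpa.

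At 15 dpa the places were 23 for GHI.10493.1.S1_S_AT and 56 for GHI.1127.2.A1_X_AT. Most of the larger folds of that stage ran the other way, since 15 of the 22 ahead of GHI.10493.1.S1_S_AT were lower in the mutant. Among the transcripts that were higher in the mutant at 15 dpa, the TCH4/XTH22 probe sets stood at places 8 and 24. The leading folds of that stage were CYP87A2 (GHI.1119.1.S1_S_AT), a cytochrome P450, at -8.30 (SE 0.172) and FLA11 (GHI.4418.2.S1_S_AT), a fasciclin-like arabinogalactan protein of secondary walls, at -7.04 (SE 0.103).

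At 5 and 20 dpa the probe sets stood much lower in the ranking. GHI.10493.1.S1_S_AT stood at places 1534 and 2657, and GHI.1127.2.A1_X_AT at places 14734 and 2248. At 5 dpa 6.38% of all probe sets had a larger fold than GHI.10493.1.S1_S_AT. For GHI.1127.2.A1_X_AT the share was 61.3%, so its difference was smaller than that of the median probe set at that stage, 0.17 on the log2 scale. The rank of that small fold was loose, and 1 SE either way spanned places 11391 to 18641. At 20 dpa the percentages with a larger fold were 11.1% and 9.35%, still well above the stage's median size of 0.26.

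**Figure D2:**
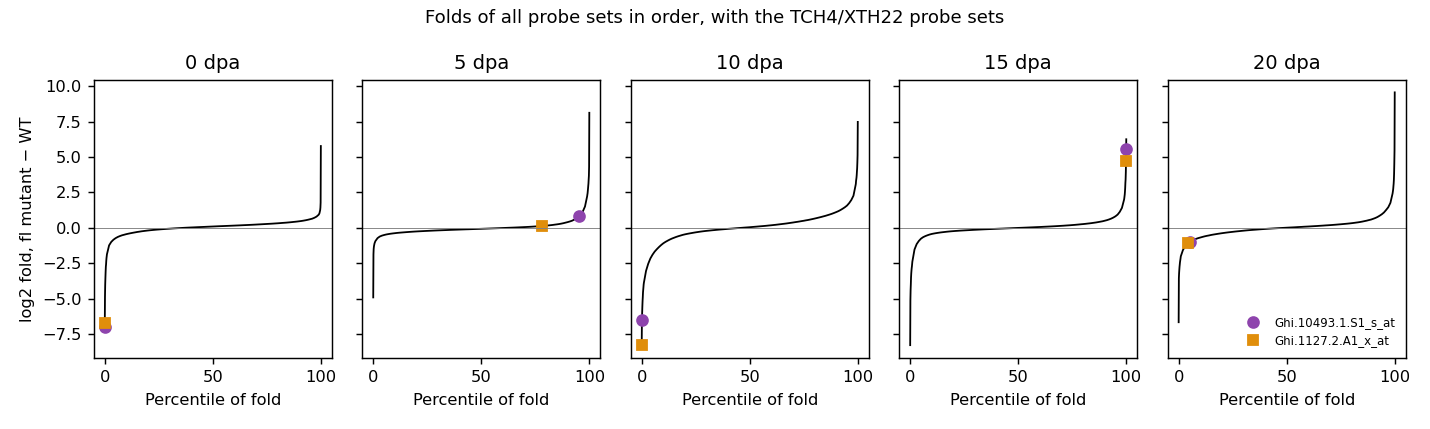
Log2 folds (fl mutant minus WT) of all 24029 probe sets in order from the lowest to the highest at each stage, with the percentile on the x axis and the TCH4/XTH22 probe sets marked. Both sit at the lower end at 0 and 10 dpa (places 1 and 3, then 28 and 1, by size), near the upper end at 15 dpa (places 23 and 56) and inside the curve at 5 and 20 dpa.

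The reversal from 10 to 15 dpa was among the widest on the array. The fold at 15 dpa minus the fold at 10 dpa was 12.08 for GHI.10493.1.S1_S_AT, the fifth largest such difference of all probe sets, and 13.00 for GHI.1127.2.A1_X_AT, the third largest. The largest of any probe set was 13.19. From 0 to 15 dpa the differences were 12.60, place 2, and 11.46, place 8. Folds at 0 and 10 dpa were closer together, with a difference of 0.51 for GHI.10493.1.S1_S_AT and of -1.53 for GHI.1127.2.A1_X_AT. The order of calls shared by both, lower at 0 and 10 dpa and higher at 15 dpa, was held by 88 probe sets or 0.366% of all, and 65 of these passed at neither 5 nor 20 dpa.

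The TCH4/XTH22 probe sets gave the same sign at 5 of 5 stages but not the same size. They differed least at 20 dpa, by 0.10 on the log2 scale, and at 0 dpa, by -0.28 (fold of GHI.10493.1.S1_S_AT minus that of GHI.1127.2.A1_X_AT). At both stages the per-array differences between the probe sets overlapped between the genotypes. At 5 dpa the folds were 0.68 apart and at 15 dpa 0.85 apart, and in both the per-array differences of the genotypes were separate. The widest gap was 1.77 at 10 dpa, a 3.41-fold difference in the ratio. At that stage the value of GHI.10493.1.S1_S_AT minus that of GHI.1127.2.A1_X_AT ran from -1.05 to -0.49 in WT and from 0.58 to 1.37 in the mutant. Over the 5 stages the root mean square difference of their folds was 0.94.

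By that measure each probe set had closer neighbours than the other. Nearest to GHI.1127.2.A1_X_AT was GRA.623.2.S1_S_AT, also a TCH4/XTH22 match, at 0.31, and nearest to GHI.10493.1.S1_S_AT was GHI.10443.1.S1_AT, a match to the AP2/ERF-type DNA-binding protein AT1G19210, at 0.61. GHI.1127.2.A1_X_AT was the sixth nearest to GHI.10493.1.S1_S_AT, and GHI.10493.1.S1_S_AT the fourth nearest to GHI.1127.2.A1_X_AT. Neighbours of this kind share arrays and stage shifts with the TCH4/XTH22 probe sets and were found by searching all probe sets, so no test is attached.

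Ordered by nearness to the mean of both TCH4/XTH22 probe sets over the 5 stage folds, the first 8 annotated probe sets included 2 further TCH4/XTH22 matches. GRA.623.2.S1_S_AT lay at a root mean square difference of 0.47, with folds of -6.24, 0.38, -8.11, 4.90 and -1.41 from 0 to 20 dpa. GHI.1127.4.S1_X_AT lay at 0.82, with folds of -5.25, 0.11, -7.51, 4.48 and -1.34. Their probes may share transcripts with the chosen probe sets, which their name endings allow, and this was not tested.

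The other neighbours are not annotated as wall enzymes. GHI.10443.1.S1_AT (AT1G19210) lay at 0.65, with folds of -5.92 at 0 dpa, -6.62 at 10 dpa and 5.69 at 15 dpa. GHIAFFX.7649.1.S1_S_AT lay at 0.67 and GHI.3284.1.S1_S_AT at 1.08, and both match AT5G12010, a protein without a known function in the study's tables. GHIAFFX.15164.1.A1_S_AT, a match to IAA4, a repressor of auxin-responsive transcription, lay at 1.15 with folds of -4.89, -7.63 and 4.27 at 0, 10 and 15 dpa. GHI.1092.3.S1_S_AT and GHI.1092.1.A1_X_AT, at 1.24 and 1.37, match AT4G29780. A single probe set for which no Arabidopsis match was read, GHI.4920.1.A1_AT, came among them at 1.01.

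**Figure D3:**
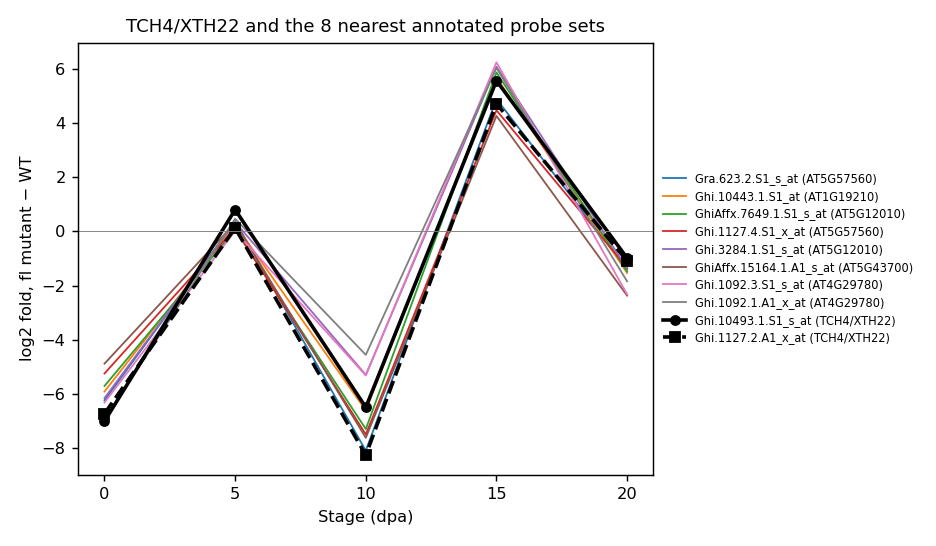
Log2 fold (fl mutant minus WT) at 5 stages in days post anthesis, for both TCH4/XTH22 probe sets (black) and the 8 annotated probe sets nearest to their mean, which were selected for this likeness. All lines are low at 0 dpa, near 0 at 5 dpa, low at 10 dpa, high at 15 dpa and below 0 at 20 dpa, from -0.99 for GHI.10493.1.S1_S_AT to -2.37 for the IAA4 match.

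A further 6 probe sets of the study's tables match TCH4/XTH22, and they did not move as one. These tables list transcripts that the study called on these arrays, so a count of called probe sets in them is no independent evidence. At 0 dpa 4 of 6 were lower, at 10 dpa 5 of 6 were lower and at 15 dpa 3 of 6 were higher. Of all probe sets 1.39%, 6.55% and 1.52% did so. The list medians were -2.11, -3.35 and 1.26, against 0.09, 0.04 and -0.01 for all probe sets. The pattern of lower, lower and higher was held by 3 of the 6, against 0.366% of all probe sets. These were GRA.623.2.S1_S_AT, GHI.1127.4.S1_X_AT and GHI.1127.4.A1_AT. GHI.1127.4.A1_AT had the smaller folds of -1.74 (SE 0.0729), -3.25 (SE 0.197) and 1.67 (SE 0.300). The call at 15 dpa was lost without replicate 1 and without replicate 2. Its name shares the cluster number of GHI.1127.4.S1_X_AT, whose folds of -5.25, -7.51 and 4.48 were all farther from 0.

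The remaining TCH4/XTH22 matches differed at fewer stages. GRA.448.1.A1_AT was lower at 10 dpa, at -3.46 (SE 0.156, limma adjusted p = 3.13e-07), and did not pass at any other stage. GHI.3322.1.A1_AT was lower at 10 dpa at a log2 fold of -1.62 (SE 0.0865), close to the threshold. GHI.7911.1.S1_X_AT went its own way. It was lower at 0 dpa (-2.48, SE 0.0766), higher at 5 dpa in the arrays labelled mutant (3.10, SE 0.102) and lower at 20 dpa in those arrays (-1.75, SE 0.0714), and read 0.24 and -0.53 at 10 and 15 dpa, where it did not pass.

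Of 11 probe sets for other XTH genes, 3 were lower at 0 dpa, against 1.39% of all probe sets. At 10 dpa 5 were lower and 2 higher, against 6.55% and 4.91%. At 15 dpa 6 were lower and 3 higher, against 1.91% and 1.52%. The study listed these 11 from its own calls on these arrays, so passing the threshold here is no independent evidence. The list medians at these stages were -0.63, -0.85 and -2.65. XTH23 (GHI.1127.1.S1_AT), also known as XTR6, alone among the 11 held the same calls as TCH4/XTH22. Its folds were -3.85 (SE 0.111), -6.92 (SE 0.177) and 4.71 (SE 0.0772), with a limma adjusted p of 4.92e-07 or less at the 3 stages. Its probe set name shares a cluster number with the chosen GHI.1127.2.A1_X_AT, whose ending marks some probes that also match other sequences. Whether both probe sets read the same transcripts was not tested. XTH7, the match of 3 probe sets, was lower at 10 dpa, at -4.74 to -5.94, and at 15 dpa as well, at -4.54 to -4.78. At 0 dpa its folds of 0.46 to 1.23 did not pass. XTH29 (GHI.4532.1.A1_AT) ran against TCH4/XTH22 at 10 and 15 dpa, being higher at 10 dpa (2.05, SE 0.103) and lower at 15 dpa (-4.00, SE 0.0766). XTH32, in both of its probe sets, was higher at 15 dpa at 2.09 and did not pass at 10 dpa.

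At 5 dpa 2 of the 11 probe sets for other XTH genes were called, both as higher, against 1.84% of all probe sets. As the study had listed the 11 from its own calls, the adjusted p-values given here are no independent evidence. XTH5 (GHIAFFX.63628.1.S1_AT) was higher in the arrays labelled mutant by 5.30 (SE 0.128, limma adjusted p = 2.07e-07) and XTH29 by 4.55 (SE 0.174). The rest of the 11 did not pass. At 20 dpa a single probe set of the 11, XTH16 (GHI.8264.1.S1_S_AT), passed as lower in the arrays labelled mutant, at -3.17 (SE 0.0693, limma adjusted p = 1.49e-08). Of all probe sets 1.95% passed as lower at that stage.

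Of 6 probe sets that the study grouped with xyloglucan enzymes, none passed at 0 dpa, where all 6 folds lay between -1.13 and 0.24. At 10 dpa the glycosidases BXL1 (GHI.8524.1.S1_AT), a beta-xylosidase, and XYL4, in both probe sets, were higher by 1.89 to 3.54. XXT2 (GHI.169.1.S1_AT), a xylosyltransferase that builds xyloglucan side chains, was lower, at -1.65 (SE 0.111). XYL1, an alpha-xylosidase that trims xyloglucan, was lower at 10 dpa in GHI.89.1.S1_X_AT (-2.48, SE 0.121) and higher at 15 dpa in GHI.9327.1.S1_S_AT (1.93, SE 0.125). Over all 23 other xyloglucan modifying probe sets, 7 were called at 0 dpa, all lower, against 1.39% of all probe sets. At 5 dpa 4 were called, all higher in the arrays labelled mutant, against 1.84%. At 10 dpa 12 were lower and 5 higher, against 6.55% and 4.91%. At 15 dpa 6 were lower and 9 higher, against 1.91% and 1.52%. At 20 dpa 3 were lower in the arrays labelled mutant, against 1.95%. The TCH4/XTH22 pattern of calls was held by 4, against 0.366%. The study listed these probe sets from its own calls on these arrays, so the counts are no independent evidence.

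**Figure D4:**
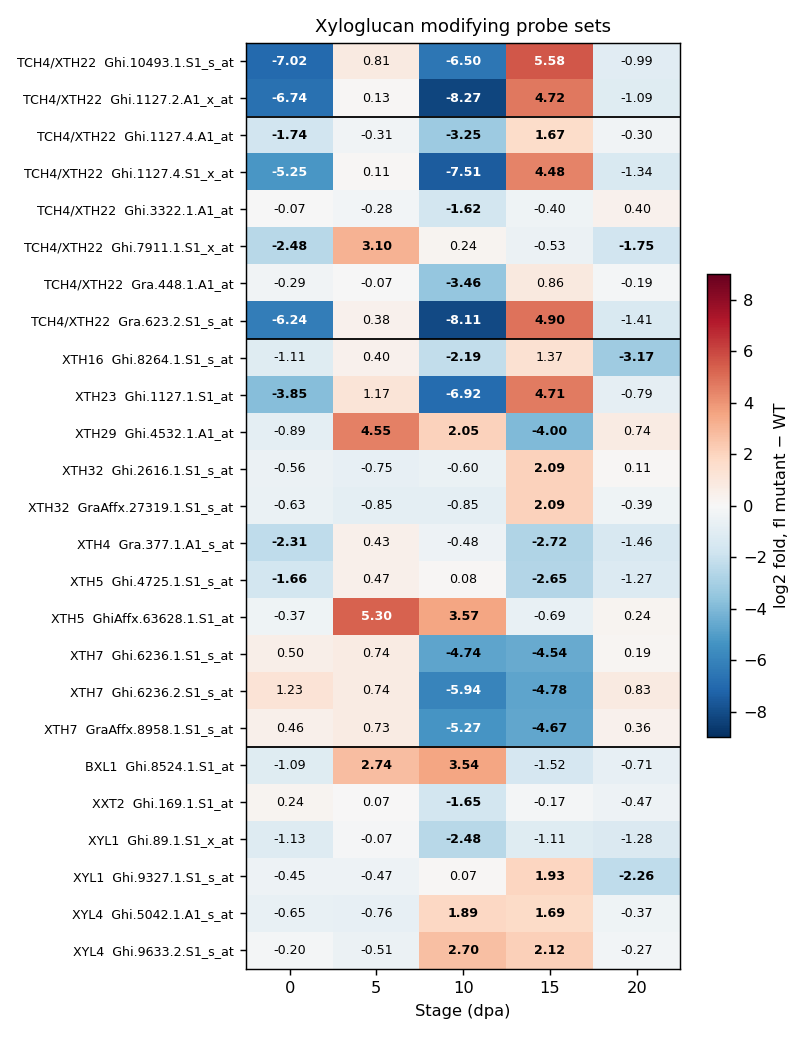
Log2 folds (fl mutant minus WT) of 25 xyloglucan modifying probe sets at 5 stages in days post anthesis, with blue for lower and red for higher in the mutant and bold numbers for called probe sets (adjusted p of 0.01 or less, fold of 3 or more). Lines separate the chosen TCH4/XTH22 probe sets, other TCH4/XTH22 matches, other XTH genes and other enzymes. XTH23, whose probe set name shares a cluster number with GHI.1127.2.A1_X_AT, has the same calls as the chosen TCH4/XTH22 probe sets. XTH7 is lower at both 10 and 15 dpa, and XTH29 has signs opposite to TCH4/XTH22 at 10, 15 and 20 dpa.

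Cotton matches of TCH1 and TCH2, each in a single probe set of the study's tables, were also lower at 10 dpa. Neither was called at 15 dpa. Those tables list transcripts called on these arrays, so the calls and p-values given here are no independent evidence. Matches that the study did not call could not be seen. Further TCH genes were not examined. TCH2/CML24 (GHIAFFX.5986.1.S1_AT), a calcium sensor, was lower at 0 dpa, at -3.76 (SE 0.0656, limma adjusted p = 6.07e-08) and at 10 dpa, at -6.06 (SE 0.0837, limma adjusted p = 2.68e-09). Its fold at 15 dpa, 1.36 (SE 0.0452), was under the fold threshold. TCH1/CAM1 (GHIAFFX.25338.1.A1_AT), calmodulin itself, was lower at 10 dpa, at -5.28 (SE 0.124) and had folds of 0.23 at 0 dpa and -0.07 at 15 dpa. At 5 dpa both were near 0, at 0.03 and -0.22, and neither passed at 20 dpa.

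A list of 16 probe sets covered transcription factors that respond quickly to touch and wounding in Arabidopsis. It matches only RRTF1, ERF5, ERF-1, STZ/ZAT10, WRKY33 and WRKY40, most of them in repeated probe sets. The matches come from the study's tables of transcripts called on these arrays, so counts are no independent evidence. At 0 dpa 11 were lower and at 15 dpa 12 were higher, against 1.39% and 1.52% of all probe sets. The list medians were -2.86 and 3.01, against 0.09 and -0.01 for all probe sets. At 10 dpa, where TCH4/XTH22 was low again, the list was split, with 5 lower, 3 higher and a median of 0.14. RRTF1 (GHI.9720.1.S1_AT), an ethylene response factor, was at -5.76 (SE 0.138) at 0 dpa, -3.89 (SE 0.121) at 10 dpa and 5.99 (SE 0.129) at 15 dpa. Its other probe set, GHIAFFX.15854.1.S1_AT, passed at 10 and 15 dpa in the same directions but not at 0 dpa (-1.22). ERF5 (GHI.8749.1.S1_AT) was lower at 0 dpa (-4.96, SE 0.101) but higher at 10 dpa (2.19, SE 0.0867) and at 15 dpa (3.84, SE 0.0691). Its other probe set, GHI.9880.2.A1_X_AT, had the same calls at 0 and 15 dpa but did not pass at 10 dpa (0.93). The zinc finger repressor STZ/ZAT10, in GHI.807.1.S1_S_AT, was lower at 0 and 10 dpa and higher at 15 dpa, at -4.90, -2.00 and 5.41. No other STZ/ZAT10 probe set held all of these calls. GHI.6901.1.A1_S_AT was higher at 10 dpa (2.87) and did not pass at 15 dpa (-0.77), while GHI.6704.1.S1_AT fell short only at 0 dpa (-1.51). The TCH4/XTH22 pattern of calls was held by 2 of the 16, these being RRTF1 in GHI.9720.1.S1_AT and STZ/ZAT10 in GHI.807.1.S1_S_AT. At 5 dpa 8 of the 16 were higher in the arrays labelled mutant, with a median of 1.56, and at 20 dpa 4 were lower in them.

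Of the 5 markers of the fibre itself, none was called higher at 15 dpa. All 5 were lower at 10 dpa, from -3.16 for a MYB factor that matches MYB16 (GHI.10360.1.S1_A_AT) to -7.20 for a germin-like protein (GHI.789.1.S1_AT). At 15 dpa 4 of 5 were lower, among them an alpha-expansin (GHI.2039.1.S1_X_AT) at -5.55 (SE 0.0789). Most of these markers had already been reported as lower in the mutant from these arrays, so counts of lower markers are no independent evidence. TCH4/XTH22 was higher in the same arrays, and this contrast is given as a description alone. At 0 dpa 1 of 5 passed, the MYB factor, at -5.17 (SE 0.0922). At 20 dpa 4 of 5 were higher in the arrays labelled mutant, at 2.16 to 3.99, and the seed storage marker beta-globulin (GHI.8040.1.S1_S_AT) was higher there by 9.57 (SE 0.0702) after folds of -0.22 to 0.09 at the other stages. The shift to stage medians removed the levels of these markers, so their summed level per group is not known, and the part of tissue makeup in the TCH4/XTH22 folds was not tested.

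**Figure D5:**
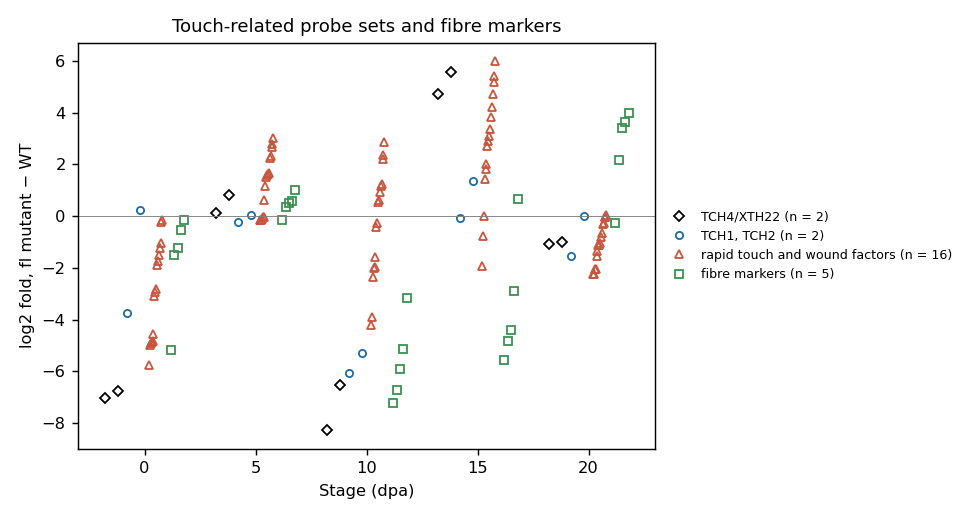
Log2 folds (fl mutant minus WT) by stage in days post anthesis, 1 symbol per probe set. Shown are the TCH4/XTH22 probe sets, the TCH1 and TCH2 matches, 16 probe sets of rapid touch and wound factors and 5 fibre markers. At 15 dpa TCH4/XTH22 and 12 of 16 rapid factor probe sets are higher and 4 of 5 fibre markers are lower. The lists were taken with earlier results of these data known, so these counts are a description alone. At 10 dpa the rapid factor probe sets are split, with a median of 0.14.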

How the data were processed

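Ovule RNA of 30 arrays was analysed from the values as deposited. The authors made log2 values by RMA (background correction, quantile normalization and median polish) in GeneSpring GX, per the study's methods, and the deposited log2 values are further shifted, so that within a stage every probe set has a median of 0. Levels are thus lost, which leaves differences between genotypes within a stage. The table has 24132 probe sets, of which 24029 were tested and 103, the Affymetrix controls, were not. In R 4.3.3, lmFit and eBayes of limma 3.58.1 compared 3 fl mutant with 3 WT arrays within each stage, grouped by the sample labels. The SE come from this fit, p-values were adjusted by Benjamini-Hochberg over all probe sets, and the number of arrays limits the precision. Ranks, root mean square differences and counts were made in Python 3.11.15 with pandas 2.3.3 and numpy 2.4.6. On simulated data of this design, with 24029 probe sets, limma called 62 to 67 of 67 shifted 4-fold at the 5 stages and 0 of 23829 left unchanged. The simulated noise was normal and independent between arrays, and the 3-fold limit alone excludes most of it. False calls from effects shared between arrays therefore could not appear in it.

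The chosen probe sets and all lists were taken with earlier results of these data known. Named were the chosen probe sets, those of the lists (at most the 4 largest folds per list and stage), and the 8 annotated probe sets nearest in pattern. Exceptions, named after their values were seen, are the leaders of each stage's ranking, the smaller TCH4/XTH22 matches, XXT2 and XTH32. Further such exceptions are the additional probe sets of RRTF1, ERF5 and STZ/ZAT10, and the values of named transcripts at their other stages. Gene names and matches come from the study's tables, from which an Arabidopsis match was read for 2098 of the probe sets tested. The study itself counted more matches, so a probe set treated as not annotated here may still have one. Of 25 xyloglucan probe sets, 3 have a cotton gene in the platform annotation, and no genome build or position is used here. The reverse primer is not reported here. Alternatives were array shifts, group medians, 1 fit of all arrays, a replicate block, the methods' t-test, other ranks and left-out replicates. Shifts to array medians, exchanged labels at 5 and 20 dpa and single left-out arrays were added after the data were seen.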

Additional observations from a re-analysis of the deposited data

Results flagged for a closer look

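The genotype difference of TCH4/XTH22 ran in opposite directions at different stages, with every mutant array on one side of WT at 10 and 0 dpa and on the other at 15 dpa. For GHI.10493.1.S1_S_AT the log2 fold at 15 dpa exceeded that at 10 dpa by 12.08 and that at 0 dpa by 12.60. For GHI.1127.2.A1_X_AT the same differences were 13.00 and 11.46. These were not tested, since the probe sets were chosen for these contrasts.

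Among the other listed probe sets, 10 were called in opposite directions at 10 and 15 dpa. They were selected for these calls, which fixes that their folds differ, so the differences are given as values with no test, and with the SE of a limma fit of all 30 arrays. The fold at 15 dpa minus that at 10 dpa was 13.01 (SE 0.184) for GRA.623.2.S1_S_AT, 11.99 (SE 0.156) for GHI.1127.4.S1_X_AT and 4.92 (SE 0.281) for GHI.1127.4.A1_AT, all TCH4/XTH22 matches. It was 11.63 (SE 0.215) for XTH23 (GHI.1127.1.S1_AT) and -6.05 (SE 0.166) for XTH29 (GHI.4532.1.A1_AT). Among the rapid touch and wound factors it was 9.88 (SE 0.175) and 7.34 (SE 0.234) for RRTF1 (GHI.9720.1.S1_AT and GHIAFFX.15854.1.S1_AT), 7.41 (SE 0.219) and 5.72 (SE 0.170) for STZ/ZAT10 (GHI.807.1.S1_S_AT and GHI.6704.1.S1_AT) and -4.26 (SE 0.170) for ERF-1 (GHIAFFX.60317.1.S1_AT). The call of GHI.1127.4.A1_AT at 15 dpa was lost without replicate 1 and without replicate 2.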

How the results depend on the processing

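Both TCH4/XTH22 probe sets kept their direction at 0, 10 and 15 dpa under every alternative run. Exchanging the labels at 5 and 20 dpa turned the folds to -0.81 and 0.99 for GHI.10493.1.S1_S_AT and to -0.13 and 1.09 for GHI.1127.2.A1_X_AT. Centring arrays on their 75th percentile or their median moved the fold of GHI.10493.1.S1_S_AT at 0 dpa to -7.11 or -7.08, and that of GHI.1127.2.A1_X_AT at 5 dpa to 0.19 or 0.18. With replicates left out, the former ranged from -7.06 to -6.96. Among probe sets ending in _at alone, GHI.10493.1.S1_S_AT would stand at places 814, 14, 6 and 1419 at 5, 10, 15 and 20 dpa, and GHI.1127.2.A1_X_AT at places 1, 7882, 16 and 1210 at 0, 5, 15 and 20 dpa, as fewer sets are ranked. Ranked by limma's moderated statistic, which divides the fold by its error, GHI.10493.1.S1_S_AT stood at places 2318, 181 and 1621 at 5, 10 and 20 dpa, and GHI.1127.2.A1_X_AT at places 144, 8 and 222 at 0, 10 and 15 dpa. By Pearson correlation 4 of the 8 nearest annotated probe sets were shared. Counts of called probe sets stayed within 1.5 times under each alternative run. Same-numbered arrays of both genotypes had residual correlations of -0.16 to 0.16, and arrays of unlike number -0.29 to 0.18. No effect shared by number was seen, but with 3 arrays per group this cannot exclude that replicates were sampled together. A replicate block left the TCH4/XTH22 folds and the counts of called probe sets as they were, with 371 of 24029 called at 0 dpa both with and without it. With 3 arrays per genotype and no levels, signal over background could not be judged.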
